A study of Homo sapiens with 8 samples.

Results

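The addition of the O-GlcNAc transferase inhibitor OSMI-2 to the CDK inhibitor AT7519 was followed in LNCaP cells, an androgen-sensitive line established from a nodal metastasis of a prostate carcinoma. RNA was sequenced after 4 hours in 4 groups of 2 libraries each. The combination group received 40 µM OSMI-2 with 0.5 µM AT7519, the AT7519 group 0.5 µM AT7519, the OSMI-2 group 40 µM OSMI-2, and the control group neither agent. Doses are as in the design text; the treatment field gives the same figures in mM. All groups were the same line, harvested at the same time. The comparison set the 2 combination libraries against the 2 AT7519 libraries over every gene averaging 10 or more normalised counts in these 4 libraries. This kept 19143 of the 55737 genes in the table, which held 99.9753% of the normalised counts of the 4 libraries. Of the other genes, 25741 were 0 in all 4 libraries and 10853 had counts below the minimum. The lowest mean inside was 10 and the highest outside 9.9952. Values given as a pair are normalised counts of the first and second library of a group, not divided by gene length.

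O-GlcNAc transferase (OGT) attaches single N-acetylglucosamine sugars to serines and threonines of nuclear and cytosolic proteins, among them RNA polymerase II and many transcription factors. A single hydrolase, OGA, encoded by the gene listed here under its older symbol MGEA5, removes them. AT7519 inhibits several cyclin-dependent kinases, including CDK9, the kinase of P-TEFb, which releases paused RNA polymerase II into elongation and which the 7SK particle with HEXIM1 holds inactive. The series asks whether prostate cancer cells in which OGT is blocked depend on CDK9. The comparison described here asks what OSMI-2 added once AT7519 was present, and the pair OSMI-2 against control shows the same addition without AT7519.

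The combination libraries held 105995544 and 60152710 reads in genes, against 92890671 and 111848023 in the AT7519 libraries, so that a count of 3 reads, taken as the floor, stood for 3.05 to 5.47 normalised counts. Such floors cover counting error only. The 13 mitochondrially encoded mRNAs took 7.73% and 7.33% of counts in the combination libraries and 7.04% and 6.57% in the AT7519 libraries. All 12 luminal prostate markers passed the minimum, whereas no immune marker did (summed level 1.03 to 9.12 with the combination and 11.4 to 13.2 with AT7519). The endothelial genes CDH5, KDR and CLDN5 and the fibroblast collagen gene COL1A2 were at 0 in all 4 libraries, although COL1A1 averaged 3104 and VWF 1334 normalised counts. In bulk libraries of this kind fewer cells of a type and less RNA per cell cannot be told apart. Nothing in the labels says that the 2 libraries of a group came from separate cultures, so the p-values measure only how far these libraries differ, which may be a technical spread.

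Adding OSMI-2 to AT7519 lowered more genes than it raised. Of the 19143 genes, 3790 (19.8%) passed an adjusted p below 0.05 in limma, of which 1388 (7.25%) were higher and 2402 (12.5%) lower in the combination. Among called genes with a log2 change of 1 or more in size the order turned, with 335 higher (1.75%) and 209 lower (1.09%). Both combination libraries lay above both AT7519 libraries in 25.1% of the 19143 genes and below them in 30.7%, called or not. Of the protein-coding genes 7.17% rose and 17.4% fell, the shares beside which the counts of the gene lists stand. Falls were commoner among well expressed genes. They made up 41 of 4073 members with a mean of 10 to 50, 1076 of 4921 from 2000 to 10000 and 547 of 2237 above 10000. The lists were not matched for level, so a share above 17.4% need not exceed that of genes of like level. This holds for every list share given below. The genes that fell were on the whole well expressed and the changes small, with a median log2 change of -0.45 and a median level of 3713 normalised counts. The genes that rose had a median log2 change of 0.65 and a median level of 784 normalised counts. Of the 335 that rose by at least 1, 43.0% carried clone names and the median level was 50.6 normalised counts.

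The split depended on the scale. Relative to equal totals 2000 genes were higher and 1520 lower, with equal upper quartiles 2143 and 1438, and with quantile normalisation 1392 and 1464. The median gene itself moved by -0.02 on the deposited scale and by 0.07, 0.08 and 0.003 on those 3 scales. Scaled to equal mitochondrial mRNAs 967 genes were higher and 2283 lower, and the median gene moved by -0.08. Levels set against control or OSMI-2 alone are on the deposited scale only. Its totals were 9.08e+07 and 9.17e+07 in the control libraries and 1.18e+08 and 1.14e+08 in the AT7519 libraries. Mitochondrially encoded mRNAs took 4.69% and 4.45% of counts in control. The order of such levels on other scales was not tested. Combination replicate 2, the shallowest library, read lower than replicate 1 in 70.0% of the genes that fell, against 49.3% of all members, and in 84.7% of those that fell by at least 1. AT7519 replicate 2, the deepest of the 4 libraries, also read lower than its replicate 1 in 68.2% of the genes that fell. It did so in 52.996% of all members and in 75.6% of genes that fell by at least 1. Without combination replicate 2, 523 genes were called higher and 1151 lower, and without AT7519 replicate 1 the counts were 750 and 1405. In the genes that fell, the second library of both groups thus read lower. The parts of depth and of a shift shared by same-numbered libraries in these differences were not tested.

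**Figure D1:**
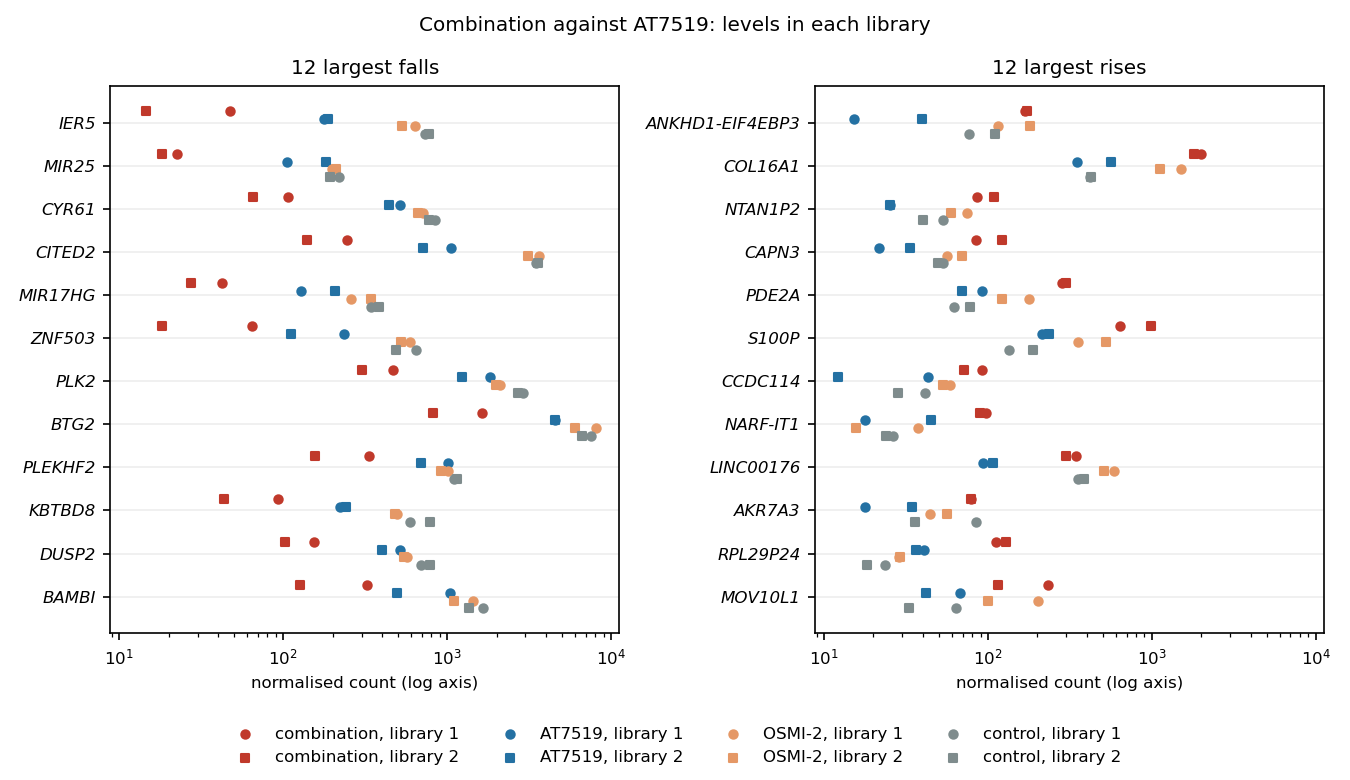
Normalised counts (log axis) in each library for the 12 genes with the largest falls (left) and the 12 with the largest rises (right) in the combination against AT7519; circles are library 1 and squares library 2 of each group. Only genes with both combination libraries on the same side of both AT7519 libraries were chosen. For IER5 or CITED2 the AT7519 libraries lie between the combination and control.

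The largest falls included immediate early genes, p53 targets and regulators of signalling. IER5, an immediate early gene that acts on heat shock factor HSF1, had 47.2 and 14.6 in the combination libraries, against 176 and 186 in the AT7519 libraries. The OSMI-2 libraries held 632 and 529 and the control libraries 737 and 769, so each combination library was lower than any library of another group, and combination replicate 2 rested on 8 reads. The fall with AT7519 present was 6.65-fold (log2 change -2.73, SE 0.36, adjusted p = 0.000269). CYR61, a secreted matrix protein induced by YAP, had 107 and 65.7 in the combination libraries, against 516 and 439 in the AT7519 libraries. It was 5.63-fold lower (log2 change -2.49, SE 0.21, adjusted p = 2.99e-05). CITED2, a CBP/p300-binding coactivator that restrains hypoxia signalling, had 243 and 139 in the combination libraries, against 1054 and 713 in the AT7519 libraries. It was 4.70-fold lower (log2 change -2.23, SE 0.22, adjusted p = 5.66e-05), and the control libraries, at 3494 and 3580.5, stood above both groups. BTG2, an antiproliferative gene, had 1626 and 821 in the combination libraries, against 4527 and 4554 in the AT7519 libraries. It was 3.93-fold lower (log2 change -1.97, SE 0.22, adjusted p = 0.000108). The polo-like kinase gene PLK2 had 464 and 301 in the combination libraries, against 1821 and 1222 in the AT7519 libraries, a 3.98-fold fall (log2 change -1.99, SE 0.19, adjusted p = 5.3e-05).

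The remaining 5 protein-coding genes among the 12 were the zinc finger gene ZNF503, the endosomal adaptor gene PLEKHF2, the ubiquitin ligase adaptor gene KBTBD8, the MAP kinase phosphatase gene DUSP2 and BAMBI, a decoy receptor of TGF-beta signalling. Their log2 changes were -2.19, -1.86, -1.84, -1.84 and -1.83, with adjusted p of 0.00374, 0.000408, 0.000596, 9.96e-05 and 0.00316. The libraries of a group lay far apart for BAMBI, with 322 and 126 in the combination libraries, against 1034 and 497 in the AT7519 libraries, and for ZNF503, with 64.6 and 18.2 in the combination libraries, against 233 and 111 in the AT7519 libraries. All 12 largest falls stayed called when any 1 of the 8 libraries was left out and on all 5 other scales.

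A pair of microRNA loci stood among these 12 falls. MIR25 had 22.6 and 18.2 in the combination libraries, against 105 and 183 in the AT7519 libraries, the combination values resting on 22 and 10 reads, and was 6.57-fold lower (log2 change -2.72, SE 0.29, adjusted p = 8.12e-05). With OSMI-2 alone it had 199 and 209 normalised counts, against 219.9 and 191 in control. MIR17HG, the host transcript of the miR-17-92 cluster, had 42.0 and 27.4 in the combination libraries, against 128 and 206 in the AT7519 libraries, a 4.68-fold fall (log2 change -2.23, SE 0.28, adjusted p = 0.0002). MIR25 lies within MCM7 on the same strand, and MCM7 itself had 20833 and 18986 in the combination libraries, against 28952 and 27835 in the AT7519 libraries (log2 change -0.51, SE 0.09, adjusted p = 0.00219). The kit named in the labels makes libraries of long RNA, so the counts are not of mature microRNA. The mature products are shown because the last microRNA of the MIR17HG cluster shares its seed with that of MIR25 (RefSeq, GRCh38.p14; 5′ to 3′, bases 2 to 8 in capitals). The first is on chr7:100093571-100093592 (minus strand), and the others are on chromosome 13 (plus strand), at chr13:91350618-91350640, chr13:91351072-91351094 and chr13:91351361-91351382.
hsa-miR-25-3p: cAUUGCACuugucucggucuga
hsa-miR-17-5p: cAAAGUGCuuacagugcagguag
hsa-miR-20a-5p: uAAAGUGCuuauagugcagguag
hsa-miR-92a-3p: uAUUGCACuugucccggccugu
The first and last share the seed AUUGCAC, and the middle pair shares AAAGUGC.

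The largest rises included genes for a collagen, a calcium-binding protein and a phosphodiesterase. COL16A1, a fibril-associated collagen, had 1994 and 1802 in the combination libraries, against 347 and 563 in the AT7519 libraries, and was 4.28-fold higher (log2 change 2.10, SE 0.20, adjusted p = 4.9e-05). S100P, a calcium-binding protein, had 638 and 983 in the combination libraries, against 214 and 237 in the AT7519 libraries, a 3.50-fold rise (log2 change 1.81, SE 0.24, adjusted p = 0.000311). PDE2A, a phosphodiesterase that degrades cyclic nucleotides, had 281 and 297 in the combination libraries, against 91.3 and 69.1 in the AT7519 libraries, a 3.60-fold rise (log2 change 1.85, SE 0.27, adjusted p = 0.00043). The 3 genes also rose with OSMI-2 alone, by 1.62, 1.43 and 1.07 on the log2 scale (adjusted p = 0.00452, 0.0116 and 0.0458). None of these 3 calls without AT7519 held without control replicate 2 (adjusted p up to 0.0970, 0.176 and 0.304 over the fits leaving out 1 library), and those of S100P and PDE2A were also lost without OSMI-2 replicate 2 or control replicate 1, and that of PDE2A without OSMI-2 replicate 1 or either combination library and on 3 other scales. LINC00176, annotated as the coding gene C20orf204, followed another course. It had 342 and 299 in the combination libraries, against 92.6 and 107 in the AT7519 libraries, while OSMI-2 alone had 589 and 512 and control 352 and 386, so that the combination libraries came close to control and the AT7519 libraries stood lowest. Its rise over AT7519 passed the test (log2 change 1.68, SE 0.18, adjusted p = 8.98e-05).

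The largest rise of all was counted for a read-through transcript, ANKHD1-EIF4EBP3, with 168 and 173 in the combination libraries, against 15.2 and 39.7 in the AT7519 libraries (log2 change 2.74, SE 0.39, adjusted p = 0.000408). Its overlapping genes ANKHD1, with 725 and 578 in the combination libraries, against 460.3 and 635 in the AT7519 libraries, and EIF4EBP3, with 1002 and 1001 in the combination libraries, against 1013 and 980.2 in the AT7519 libraries, were not called, and how reads were shared among the 3 is uncertain. The calpain gene CAPN3 (log2 change 1.87) and the pseudogenes NTAN1P2 (1.89) and RPL29P24 (1.62) also overlap other genes on the same strand. CCDC114 (1.76), NARF-IT1 (1.69), AKR7A3 (1.63), MOV10L1 (1.61) and RPL29P24 rested on low counts and lost the call when 1 library was left out, with adjusted p up to 0.141, 0.206, 0.129, 0.146 and 0.0506. Leaving out combination replicate 1 ended 4 of these 5 calls and leaving out combination replicate 2 ended 4, while AT7519 replicate 1 ended those of NARF-IT1 and AKR7A3 and AT7519 replicate 2 those of CCDC114 and MOV10L1.

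Among the 12 genes of O-GlcNAc cycling and the hexosamine pathway, which makes the sugar donor of OGT, 2 rose and 1 fell. OGT had 38849 and 37923 in the combination libraries, against 23384 and 29175 in the AT7519 libraries, a 1.47-fold rise (log2 change 0.56, SE 0.09, adjusted p = 0.000994). All combination values lay above all AT7519 values, and with OSMI-2 alone OGT had 31597 and 30152, against 24330 and 23509 in control (log2 change 0.37, SE 0.09, adjusted p = 0.0433). The rise with AT7519 present was called whichever library was left out, and that without AT7519 was lost on leaving out any library of OSMI-2, control or the combination (adjusted p up to 0.394). MGEA5, the gene of the enzyme with the opposite activity, had 27257 and 28199 in the combination libraries, against 24781 and 23336 in the AT7519 libraries, a difference that did not pass (log2 change 0.21, SE 0.08, adjusted p = 0.0895). Without AT7519 it fell, with 19571 and 20927 with OSMI-2 alone, against 28413 and 24816 in control (log2 change -0.39, SE 0.08, adjusted p = 0.0219), and the changes differed (log2 interaction 0.60, SE 0.11, adjusted p = 0.0241). The fall of MGEA5 was lost on leaving out any OSMI-2 or control library (adjusted p up to 0.140) and on 3 other scales, and its interaction on leaving out any of these libraries or combination replicate 2 (up to 0.155). GFPT1, the entry enzyme of the hexosamine pathway, rose by 0.31 and GNPDA2, a deaminase that runs the other way, fell by 0.31 (log2). The GFPT1 call was lost without AT7519 replicate 2 or combination replicate 2 (adjusted p up to 0.228), and that of GNPDA2 without AT7519 replicate 1 or combination replicate 2 (up to 0.138) and on 3 other scales. On the scale of equal mitochondrial mRNAs GFPT1 did not pass.

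Of the 11 genes of P-TEFb, the 7SK particle and the BET readers, 5 fell and 1 rose, with a median log2 change of -0.24 beside -0.02 over all members. CCNT1, cyclin T1 of P-TEFb, had 8183 and 5845 in the combination libraries, against 12702 and 12517 in the AT7519 libraries, a 1.82-fold fall (log2 change -0.87, SE 0.12, adjusted p = 0.000344). CDK9 had 6621 and 5662 in the combination libraries, against 8127 and 8640.2 in the AT7519 libraries and was 1.37-fold lower (log2 change -0.45, SE 0.09, adjusted p = 0.00350). On the deposited scale combination and AT7519 libraries both stood above those of OSMI-2 alone (4965 and 4904) and control (4872 and 4966). That order was not tested on other scales. Without combination replicate 2 the adjusted p of CDK9 was 0.0522. The bromodomain reader gene BRD2 had 6691 and 5719 in the combination libraries, against 10154 and 9839 in the AT7519 libraries (log2 change -0.69, SE 0.09, adjusted p = 0.000183). HEXIM1, the inhibitor of P-TEFb, had 1950.0 and 2409 in the combination libraries, against 2043 and 2124 in the AT7519 libraries, far below the 6261 and 6719 of control, and the combination and AT7519 groups overlapped (log2 change 0.06, SE 0.11, adjusted p = 0.763). MEPCE, which caps 7SK RNA, had 1119.5 and 1005 in the combination libraries, against 1222 and 920.2 in the AT7519 libraries, and 10631 and 10745 in control, and also overlapped between the groups with AT7519. The rise of BRD3 (log2 change 0.33) was lost on leaving out any library but combination replicate 1 (adjusted p up to 0.326) and on the scale of equal mitochondrial mRNAs.

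Of 33 elongation factors and transcriptional CDKs 14 fell and 1 rose, with a median of -0.23. Between 4 and 8 fell when 1 of the 4 libraries was left out, the fewest without combination replicate 2. ELL, a factor that raises the elongation rate, had 1314 and 1018 in the combination libraries, against 2011 and 2416 in the AT7519 libraries (log2 change -0.93, SE 0.13, adjusted p = 0.000411). CDK8, the kinase of the Mediator complex, had 1703 and 1428 in the combination libraries, against 3156 and 2287 in the AT7519 libraries (log2 change -0.78, SE 0.14, adjusted p = 0.00217). EAF2, a partner of ELL, was 1.81-fold lower (adjusted p = 0.0311), a call lost without AT7519 replicate 1, AT7519 replicate 2 or combination replicate 2 (up to 0.256) and with equal totals or upper quartiles.

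Genes induced by growth factors within minutes had the lowest median of the 33 lists. Of 24 immediate early genes 11 fell and 1 rose, with a median log2 change of -0.56 (-0.08 with OSMI-2 alone, where none fell). Leaving out 1 of the 4 libraries gave 9 to 14 falls. Besides IER5, CYR61, BTG2 and DUSP2, the falls included KLF4 (-1.53), a zinc finger factor, the phosphatase gene DUSP4 (-1.58), SPRY2 (-1.09), a brake on receptor tyrosine kinases, and JUN (-0.72). SPRY2 did not pass without combination replicate 2 (adjusted p = 0.0900). FOSB, the Fos-family partner of JUN, went the other way, with 54.3 and 67.5 in the combination libraries, against 16.5 and 26.4 in the AT7519 libraries, still below the 131 and 125 of control (log2 change 1.49, SE 0.32, adjusted p = 0.00589). It overlaps ERCC1 on the other strand.

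MYC, the growth regulator, had 9927 and 10353 in the combination libraries, against 15662 and 15943 in the AT7519 libraries, a 1.56-fold fall (log2 change -0.64, SE 0.08, adjusted p = 0.000173). Its antagonist gene MXD1, which competes for the partner MAX, also fell 1.93-fold, with 373 and 354 in the combination libraries, against 747 and 659 in the AT7519 libraries (log2 change -0.95, SE 0.13, adjusted p = 0.000346). MXD1 overlaps SNRNP27 on the same strand. MNT, another MAX partner, rose by 0.51 (adjusted p = 0.0112), a call lost without AT7519 replicate 1 or combination replicate 1 (up to 0.0960). In all 4 of the 11 genes of this network fell and 1 rose.

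Of the 29 genes of the p53 response 16 fell and 2 rose, with a median of -0.38 and -0.09 with OSMI-2 alone, and 13 to 15 fell on leaving out 1 of the 4 libraries. PPM1D, a phosphatase of the DNA damage response, had 653 and 620.0 in the combination libraries, against 1930.0 and 1658 in the AT7519 libraries, a 2.81-fold fall (log2 change -1.49, SE 0.11, adjusted p = 2.99e-05). The CDK inhibitor gene CDKN1A had 12018 and 11591 in the combination libraries, against 16751 and 18733 in the AT7519 libraries, a fall that passed (log2 change -0.59, SE 0.09, adjusted p = 0.000527). The list holds BTG2, PLK2 and PMAIP1, which also stand in other lists.

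Among 21 genes of the BCL2 family and the inhibitors of apoptosis 6 fell and 3 rose. MCL1, a short-lived survival protein, had 20373 and 20099 in the combination libraries, against 38254 and 32764 in the AT7519 libraries, a 1.75-fold fall (log2 change -0.81, SE 0.08, adjusted p = 6.29e-05). On the deposited scale the AT7519 libraries stood above the 25198 and 25973 of control and the combination libraries below them. PMAIP1, which encodes NOXA, the antagonist of MCL1, fell 1.96-fold, with 704 and 553 in the combination libraries, against 1299.7 and 1155 in the AT7519 libraries (log2 change -0.97, SE 0.14, adjusted p = 0.000389). CFLAR, which blocks caspase-8, had 4708 and 4860.1 in the combination libraries, against 3318 and 3399 in the AT7519 libraries, and the death-promoting gene BMF had 746 and 751 in the combination libraries, against 536 and 443 in the AT7519 libraries; they rose by 0.51 and 0.62 (adjusted p = 0.000835 and 0.00399). Of 15 NF-kB and inflammatory genes 6 fell (3 without combination replicate 2) and none rose, led by the cytokine gene LIF with 207 and 117 in the combination libraries, against 497 and 472 in the AT7519 libraries (log2 change -1.63, SE 0.22, adjusted p = 0.000339).

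Genes of proliferation were lower with the combination across both lists that hold them, and also with OSMI-2 alone. Without AT7519 the medians were -0.38 over the G1/S list, where 15 fell, and -0.24 over that of G2 and mitosis, where 8 fell. No interaction was called in either list. Of 41 G1/S and replication genes 19 fell and none rose (median -0.30), with 10 to 17 falls when 1 of the 4 libraries was left out, the fewest without combination replicate 2. Of 32 genes of G2 and mitosis 18 fell and none rose (median -0.27), with 9 to 20 falls, the fewest without AT7519 replicate 1. CDC25A, the phosphatase that activates CDK2, had 1320.5 and 1173 in the combination libraries, against 2605 and 2931 in the AT7519 libraries and 2739 and 2269 with OSMI-2 alone, against 3563 and 4139 in control. Its fall on adding OSMI-2 to AT7519 was 2.22-fold (log2 change -1.15, SE 0.12, adjusted p = 7.91e-05). MCM10, which brings DNA polymerase alpha to the origin, had 1894 and 1889 in the combination libraries, against 3146 and 2988 in the AT7519 libraries (log2 change -0.70, SE 0.10, adjusted p = 0.000566). AURKA, a spindle kinase, had 1219 and 1439 in the combination libraries, against 2438 and 2187 in the AT7519 libraries (log2 change -0.80, SE 0.10, adjusted p = 0.000216), and PLK1, another mitotic kinase, had 3955 and 4159.8 in the combination libraries, against 7123 and 6734 in the AT7519 libraries (log2 change -0.77, SE 0.09, adjusted p = 0.000176).

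Among 25 cell cycle CDKs, cyclins and inhibitors 10 fell and 1 rose. CDKN1B, which encodes the CDK inhibitor p27, had 3828 and 3027 in the combination libraries, against 6674 and 5234 in the AT7519 libraries (log2 change -0.80, SE 0.12, adjusted p = 0.000595), and the cyclin gene CCNG2 had 8209 and 8082 in the combination libraries, against 14700 and 11767 in the AT7519 libraries (log2 change -0.69, SE 0.10, adjusted p = 0.000596). CCND1, the G1 cyclin, had 12457 and 15332 in the combination libraries, against 11942 and 11187 in the AT7519 libraries and did not pass (log2 change 0.26, SE 0.10, adjusted p = 0.0783). None of the 42 replication-dependent histone genes above the minimum was called (median 0.02), and 33 more lay below it.

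The promoters of the replication genes are shown because their list held the motif searched for it most often. The E2F motifs TTTGGCGC and TTTCCCGC, read on both strands, occurred in 18 of the 37 G1/S promoters matched by symbol (48.6%), in 3.68% of the 10889 member promoters and in 2.27% of all 35116 RefSeq promoters. They occurred in 4.75% of promoters of genes that fell and in 2.01% of those that rose. The 4 replication genes with a motif that fell most are given from 250 bases before to 50 bases after the start (RefSeq, GRCh38.p14; motif in capitals). They lie at chr3:48188368-48188667 (minus strand), chr16:58392221-58392520, chr17:40287629-40287928 and chr16:88803539-88803838 (plus strand).
CDC25A: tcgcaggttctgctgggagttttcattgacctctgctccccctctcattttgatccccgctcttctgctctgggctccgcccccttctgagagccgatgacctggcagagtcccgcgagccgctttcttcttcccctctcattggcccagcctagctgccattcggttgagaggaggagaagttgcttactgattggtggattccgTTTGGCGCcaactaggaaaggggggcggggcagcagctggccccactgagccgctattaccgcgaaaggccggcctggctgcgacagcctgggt
GINS3: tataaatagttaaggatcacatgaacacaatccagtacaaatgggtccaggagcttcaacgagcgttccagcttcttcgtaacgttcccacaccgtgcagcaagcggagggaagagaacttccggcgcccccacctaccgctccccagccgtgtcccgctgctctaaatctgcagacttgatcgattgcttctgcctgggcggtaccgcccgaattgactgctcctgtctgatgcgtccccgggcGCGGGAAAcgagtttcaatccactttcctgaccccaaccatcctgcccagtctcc
CDC6: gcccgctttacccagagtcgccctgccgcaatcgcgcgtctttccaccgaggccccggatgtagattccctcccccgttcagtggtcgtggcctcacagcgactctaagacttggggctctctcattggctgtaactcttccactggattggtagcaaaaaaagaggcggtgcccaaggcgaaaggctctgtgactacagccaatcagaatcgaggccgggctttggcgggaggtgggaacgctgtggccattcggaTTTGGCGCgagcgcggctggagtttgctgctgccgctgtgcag
CDT1: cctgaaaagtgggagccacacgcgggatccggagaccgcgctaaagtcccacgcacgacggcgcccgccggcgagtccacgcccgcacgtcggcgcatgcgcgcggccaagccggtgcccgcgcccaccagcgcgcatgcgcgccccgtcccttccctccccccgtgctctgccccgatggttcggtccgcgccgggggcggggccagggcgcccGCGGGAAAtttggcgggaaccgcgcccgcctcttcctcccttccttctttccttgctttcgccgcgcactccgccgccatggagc
The log2 changes of these genes were -1.15, -0.72, -0.65 and -0.54, and CDT1 did not pass without combination replicate 2 (adjusted p = 0.118). The E-box CACGTG stood in 10 of 32 ribosome biogenesis promoters (31.2%) against 10.1% of member promoters, and the heat shock motif GAANNTTC in 7 of 24 heat shock promoters (29.2%) against 4.55%. The sterol motif TCACCCCAC was found in 1 of 19 cholesterol promoters (5.26%) against 0.367% of member promoters. The ATF4 motif TTGCATCA was found in 2 of 28 promoters of its list (7.14%) against 0.468%. The unfolded protein response motif TGACGTGG was found in 1 of 25 (4%) against 0.909%. These list shares rest on 1 or 2 promoters each.

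Ribosome biogenesis and heat shock genes had the largest shares of falls of the 33 lists, 78.4% and 76.9%, and which of them was larger changed with the test and the libraries kept. Of 37 genes 29 fell and none rose (median -0.42, and -0.36 with OSMI-2 alone), with 18 to 24 falls when 1 of the 4 libraries was left out, the fewest without combination replicate 2. RRS1, an assembly factor of the large subunit, had 2025 and 1711 in the combination libraries, against 3898 and 3345 in the AT7519 libraries (log2 change -0.96, SE 0.11, adjusted p = 0.000144). WDR43, a small-subunit processome component, had 5084 and 4453 in the combination libraries, against 8228 and 9187 in the AT7519 libraries (log2 change -0.87, SE 0.11, adjusted p = 0.000176), and NIP7, needed for pre-rRNA processing, had 4784 and 4070.4 in the combination libraries, against 8282 and 7689 in the AT7519 libraries (log2 change -0.85, SE 0.10, adjusted p = 0.000128). On the deposited scale NIP7 was higher in the AT7519 libraries than in control (5109.9 and 5844) and the combination libraries lay below both. Of 84 cytosolic ribosomal protein genes 4 fell (0 to 3 when 1 of the 4 libraries was left out, none without AT7519 replicate 1), with a median of -0.07 whose sign turned with equal totals, equal upper quartiles and quantile normalisation.

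Of 26 heat shock and chaperone genes 20 fell and none rose (median -0.41; 16 to 20 falls when 1 of the 4 libraries was left out). DNAJB1, an HSP40 cochaperone, had 1545 and 1173 in the combination libraries, against 2901 and 2278 in the AT7519 libraries, far below the 7703 and 7986 of control (log2 change -0.93, SE 0.13, adjusted p = 0.000389). HSF2, a heat shock factor, had 1821 and 1409.7 in the combination libraries, against 3001 and 2730.2 in the AT7519 libraries (log2 change -0.84, SE 0.12, adjusted p = 0.000536). HSPH1, an HSP110 chaperone, had 11592 and 14695 in the combination libraries, against 20322 and 20725 in the AT7519 libraries (log2 change -0.65, SE 0.14, adjusted p = 0.00467), and its adjusted p was 0.0505 without combination replicate 1. The subunits of the TRiC chaperonin TCP1, CCT2, CCT3 and CCT5 fell by 0.53, 0.52, 0.32 and 0.42 on the log2 scale, of which CCT3 did not pass without AT7519 replicate 1 (adjusted p = 0.0742) or with quantile normalisation.

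Of 32 proteasome subunit genes 23 fell and 1 rose (median -0.27), a count that ranged from 7 without combination replicate 2 to 18 without another of the 4 libraries. PSMD12, a lid subunit, had 10305 and 10098 in the combination libraries, against 15593 and 14827 in the AT7519 libraries (log2 change -0.58, SE 0.08, adjusted p = 0.000246). The only rise, of PSMA6, was lost on leaving out any library but AT7519 replicate 2 and on 2 other scales. Of 70 nuclear oxidative phosphorylation genes 23 fell and none rose (median -0.19; 5 to 19 falls, the fewest without combination replicate 2), led by CYCS, cytochrome c, at -0.52. With OSMI-2 alone the medians of the proteasome and nuclear oxidative phosphorylation lists were -0.30 and -0.19. None of the 13 mitochondrially encoded mRNAs was called. Of 31 glycolysis and hypoxia genes 10 fell and 1 rose, with 4 to 7 falls when 1 of the 4 libraries was left out, the fewest without combination replicate 2. LDHA, lactate dehydrogenase A, fell by 0.55 and TPI1, triosephosphate isomerase, by 0.42, while VEGFA, the angiogenic growth factor, rose 1.61-fold with 20064 and 20624 in the combination libraries, against 12408 and 12864 in the AT7519 libraries (log2 change 0.69, SE 0.08, adjusted p = 9.96e-05). Of 49 splicing factors 12 fell (24.5%, beside 17.4% of coding genes) and none rose, with 4 falls without combination replicate 2 and as few as 2 on another scale.

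The amino acid stress genes had a larger share of rises, 33.3%, than any other list with all libraries kept; without combination replicate 1 the androgen-regulated and luminal list had the larger one. Of 33 genes of ATF4 and the integrated stress response 11 rose and 1 fell, with a median of 0.24 and 0.22 with OSMI-2 alone, and 8 to 10 rose when 1 of the 4 libraries was left out. SLC7A11, the cystine transporter, had 39304 and 31126 in the combination libraries, against 22400 and 20013 in the AT7519 libraries, a 1.65-fold rise (log2 change 0.72, SE 0.12, adjusted p = 0.000984). SLC7A5, a leucine transporter, had 1367 and 937 in the combination libraries, against 725 and 779 in the AT7519 libraries (log2 change 0.59, SE 0.18, adjusted p = 0.0332), a call lost without AT7519 replicate 1, AT7519 replicate 2 or combination replicate 1 (up to 0.270). SLC38A2, a glutamine transporter, was the single fall, with 15623 and 13969 in the combination libraries, against 19666 and 21138 in the AT7519 libraries and 54327 and 50249 in control (log2 change -0.46, SE 0.08, adjusted p = 0.00119).

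Of 29 endoplasmic reticulum chaperone and unfolded protein response genes 3 rose and 3 fell (10.3% each, beside 7.17% and 17.4% of coding genes). The median of -0.07 changed sign with equal totals, equal upper quartiles and quantile normalisation. None rose or fell without combination replicate 2, and none fell without AT7519 replicate 1. XBP1, the transcription factor spliced by IRE1, had 6209 and 4638 in the combination libraries, against 9267 and 6633 in the AT7519 libraries and was 1.46-fold lower (log2 change -0.55, SE 0.14, adjusted p = 0.0150). That call was lost without AT7519 replicate 1 or combination replicate 2 (up to 0.181) and with quantile normalisation. Of 20 aminoacyl-tRNA synthetase genes, many of them known ATF4 targets, 6 fell (30%, beside 17.4% of coding genes) and none rose. The median was 0.04, with 11 of the 20 above 0, and it changed sign with equal mitochondrial mRNAs. Leaving out 1 of the 4 libraries gave 4 to 6 falls and 0 to 2 rises. The other scales gave 3 to 6 falls and 0 to 4 rises. Whether the genes that fell are ATF4 targets was not tested.

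The androgen-regulated and luminal genes moved both ways, with 8 of 30 higher and 10 lower. KLK3, which encodes prostate-specific antigen, had 118890 and 156730 in the combination libraries, against 104020 and 104100 in the AT7519 libraries (log2 change 0.39, SE 0.11, adjusted p = 0.0276). The groups did not overlap, but the call was lost without AT7519 replicate 1, AT7519 replicate 2 or combination replicate 2 (adjusted p up to 0.314). KLK2, its neighbour and close relative, had 29165 and 35897 in the combination libraries, against 18104 and 22625 in the AT7519 libraries (log2 change 0.68, SE 0.13, adjusted p = 0.00309), with an adjusted p of 0.0510 without combination replicate 2. In contrast, GATA2, a transcription factor of luminal prostate cells, had 9268 and 7260.0 in the combination libraries, against 14466 and 13176 in the AT7519 libraries (log2 change -0.75, SE 0.10, adjusted p = 0.000298). UGT2B10, UGT2B15 and UGT2B11, related genes of UGT2B glucuronidating enzymes that can share reads, fell by 1.19, 0.70 and 0.57 on the log2 scale. UGT2B10 had 1566 and 1504 in the combination libraries, against 3421 and 3587 in the AT7519 libraries. Without combination replicate 2 only 1 gene of the list was called higher.

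**Figure D2:**
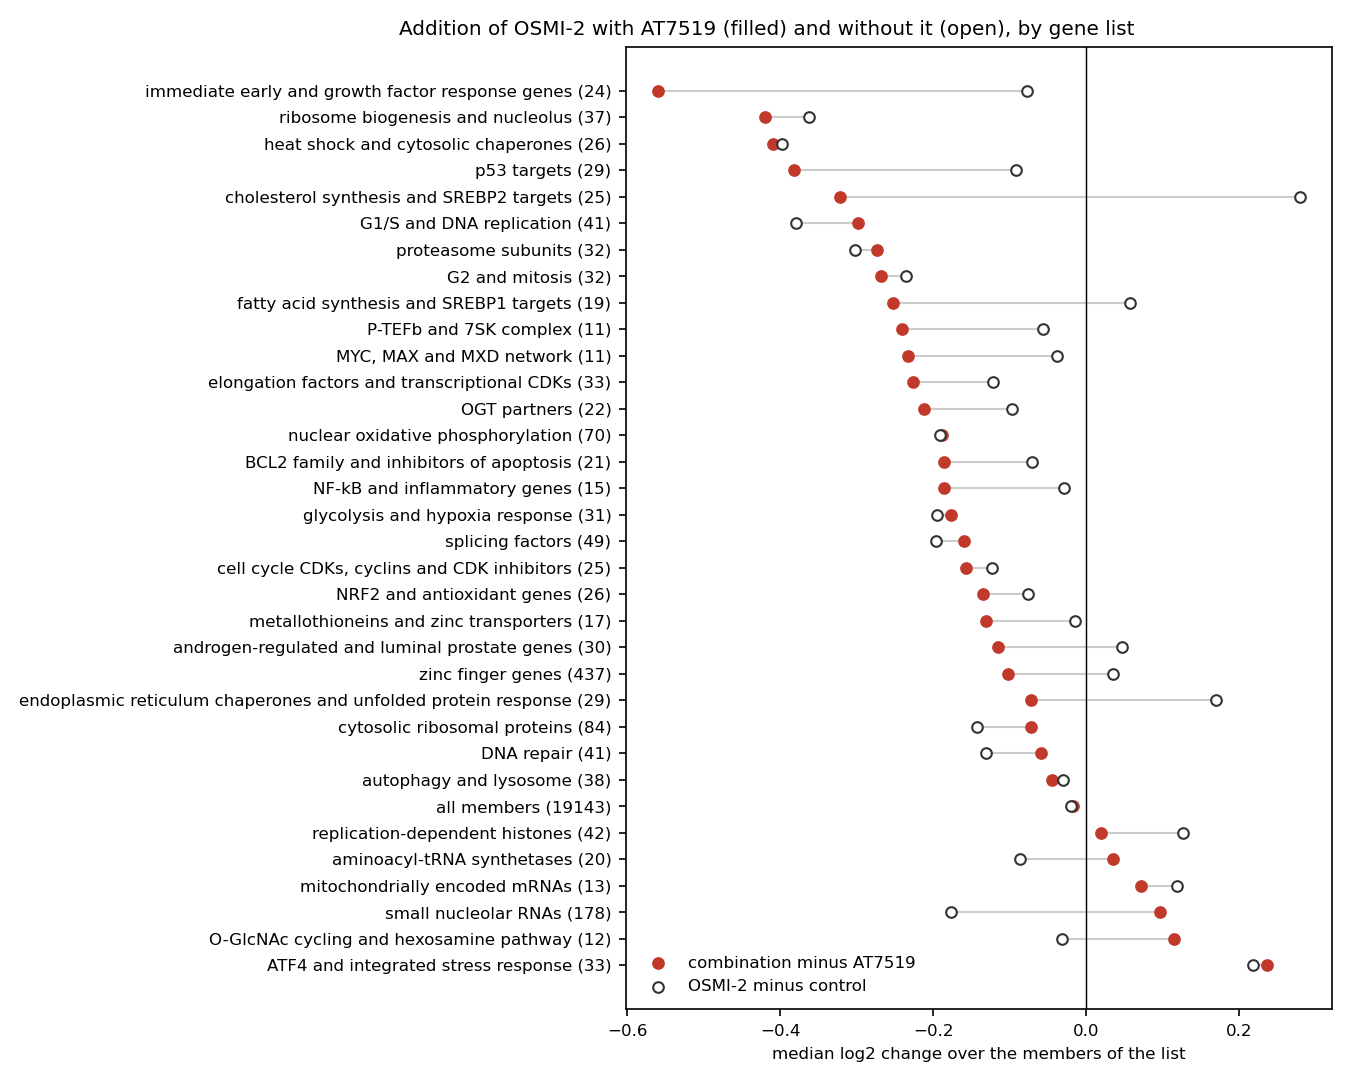
Median log2 change over the members of each gene list (number of members in brackets) in the combination against AT7519 (filled) and in OSMI-2 against control (open). Cholesterol genes had medians of -0.32 with AT7519 present and 0.28 without it, whereas ribosome biogenesis and heat shock genes had medians below -0.35 in both.

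Cholesterol genes were mostly lower on adding OSMI-2 to AT7519 and mostly higher with OSMI-2 alone. These genes are driven by the transcription factor SREBP2 when cells sense little sterol. On adding OSMI-2 to AT7519 none of the 25 rose and 10 fell (median -0.32), whereas with OSMI-2 alone 8 rose and 1 fell (median 0.28). Leaving out 1 of the 4 libraries with AT7519 gave 6 to 11 falls, the fewest without combination replicate 1. Of the rises without AT7519, none was called without control replicate 2, where 20 of the 25 genes were still above 0, and 1, that of MVD, without OSMI-2 replicate 2, where 18 were above 0. The fitted interaction was below 0 in 24 of the 25 and called in 11.

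INSIG1, which retains the SREBP machinery in the endoplasmic reticulum, had 26376 and 33583 with OSMI-2 alone, against 19028 and 13180 in control, while the combination libraries had 8531 and 10909, against 14182 and 10558 in the AT7519 libraries, with overlap (log2 interaction -1.25, SE 0.24, adjusted p = 0.0275). With 1 library left out the interaction of INSIG1 was called only without AT7519 replicate 2 or combination replicate 2 (adjusted p up to 0.161 otherwise). MSMO1, a sterol oxidase, likewise rose alone, with 18171 and 22623 with OSMI-2 alone, against 11806 and 11069 in control, and overlapped with AT7519 present, with 11093 and 13524 in the combination libraries, against 13109 and 12934 in the AT7519 libraries. The calls of INSIG1 and MSMO1 without AT7519 were lost without OSMI-2 replicate 2 or control replicate 2. EBP, a sterol isomerase, and ACAT2, which makes acetoacetyl-CoA, fell on adding OSMI-2 to AT7519. EBP had 3643 and 3539.8 in the combination libraries, against 5719 and 6483 in the AT7519 libraries (log2 change -0.76, SE 0.09, adjusted p = 0.000138), and ACAT2 had 9082 and 8909 in the combination libraries, against 13519 and 13846 in the AT7519 libraries (log2 change -0.60, SE 0.08, adjusted p = 0.000198). ACAT2 overlaps TCP1, given above with the chaperones, on the other strand. ACAT2 had 8409 and 7981 with OSMI-2 alone, against 9805 and 10431 in control, so it fell in both settings, but the fall without AT7519 passed only with all OSMI-2, control and combination libraries (adjusted p 0.0459, and up to 0.441 on leaving out 1) and on the deposited scale and that of equal mitochondrial mRNAs. Of 19 fatty acid synthesis genes 7 fell and 1 rose (median -0.25), but only 1 of them fell without combination replicate 1. FADS2, which overlaps FEN1 and FADS1, fell by 0.60 (adjusted p 0.0532 without combination replicate 1) and ELOVL6, a fatty acid elongase, had 6878 and 8359.7 in the combination libraries, against 13669 and 10383 in the AT7519 libraries (log2 change -0.65, SE 0.12, adjusted p = 0.00240).

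**Figure D3:**
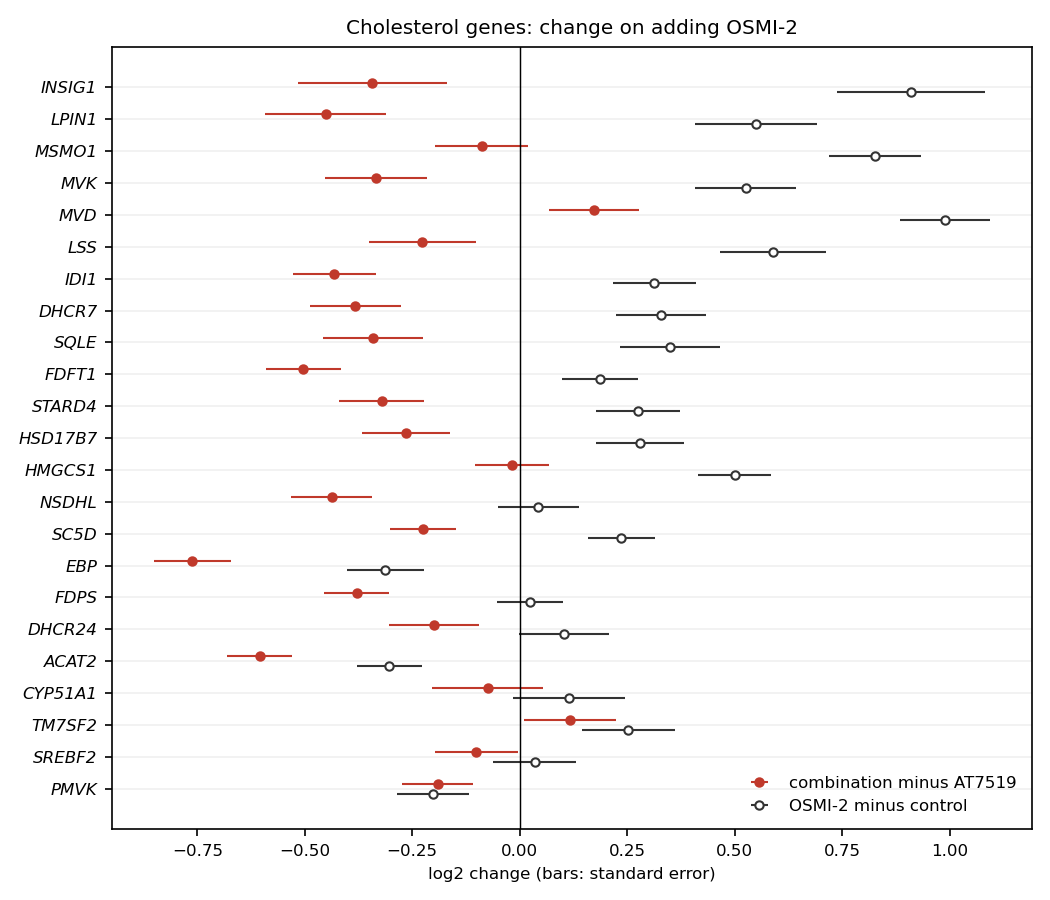
Log2 change with its standard error for 23 of the 25 cholesterol genes in the combination against AT7519 (filled) and in OSMI-2 against control (open), ordered by the difference between them. Of the 23, 18 were below 0 with AT7519 and above 0 without it; INSIG1 was at -0.34 with AT7519 and 0.91 without it.

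Zinc transport and zinc finger genes fell more often than they rose, as did coding genes at large, of which 17.4% fell and 7.17% rose. Of 437 zinc finger genes with a ZNF symbol 115 fell (26.3%) and 39 rose (8.92%), with a median of -0.10. With OSMI-2 alone none fell and 1 rose. With AT7519 present 54 fell and 13 rose without combination replicate 2, and 77 and 18 without AT7519 replicate 1. ZNF281, a repressor of stem cell genes, had 1293 and 680.2 in the combination libraries, against 3263 and 2399 in the AT7519 libraries, a 2.98-fold fall (log2 change -1.58, SE 0.21, adjusted p = 0.000319), and ZNF721 fell 3.28-fold to 23.6 and 25.5 in the combination libraries, against 88.8 and 77.3 with AT7519. ZNF382 rose 2.24-fold, with 485 and 708 in the combination libraries, against 249.8 and 273 in the AT7519 libraries (log2 change 1.16, SE 0.16, adjusted p = 0.000389). It overlaps ZNF529 on the other strand. SLC30A1, which exports zinc, had 1297 and 757 in the combination libraries, against 2752 and 2144 in the AT7519 libraries (log2 change -1.29, SE 0.19, adjusted p = 0.00047), and MTF1, the zinc-sensing transcription factor, had 967 and 1142 in the combination libraries, against 1711 and 1548 in the AT7519 libraries (log2 change -0.63, SE 0.11, adjusted p = 0.00140). In all 4 of 17 metallothionein and zinc transporter genes fell (23.5%) and none rose.

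Of the 22 genes for partners and substrates of OGT 7 fell and none rose. SIN3A, a corepressor that binds OGT, had 2864 and 2347 in the combination libraries, against 4403 and 4076 in the AT7519 libraries (log2 change -0.71, SE 0.11, adjusted p = 0.000558), and HCFC2, a relative of the OGT substrate HCFC1, had 751 and 638 in the combination libraries, against 1205 and 1023 in the AT7519 libraries (log2 change -0.68, SE 0.12, adjusted p = 0.00203). NFE2L2, the antioxidant regulator NRF2, had 2298 and 2046 in the combination libraries, against 3462 and 3496 in the AT7519 libraries (log2 change -0.68, SE 0.10, adjusted p = 0.000408), and 7 of 26 antioxidant genes fell and 1 rose, with 3 to 5 falls when 1 of the 4 libraries was left out, the fewest without AT7519 replicate 1. Of 41 DNA repair genes 8 fell and 2 rose, with none falling without combination replicate 2. As shares, 19.5% of the DNA repair genes fell and 4.88% rose, and 26.9% and 3.85% of the antioxidant genes. Among all coding genes 17.4% fell and 7.17% rose. XRCC2, a gene of homologous recombination, rose 1.48-fold with 2271 and 2303 in the combination libraries, against 1477 and 1623 in the AT7519 libraries (log2 change 0.56, SE 0.10, adjusted p = 0.00192). Of 38 autophagy and lysosome genes 8 fell (21.1%, beside 17.4% of coding genes) and 2 rose, with 4 falls and no rise without combination replicate 2. The largest fall was that of UVRAG, with 778 and 511 in the combination libraries, against 1312 and 1077 in the AT7519 libraries (log2 change -0.91, SE 0.17, adjusted p = 0.00253).

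Of the 178 small nucleolar RNAs above the minimum 9 fell (5.06%, beside 12.5% of all members) and 1 rose, with 4 to 6 falls when 1 of the 4 libraries was left out, the fewest without AT7519 replicate 2 or combination replicate 2. SCARNA13 had 94.3 and 49.2 in the combination libraries, against 200.3 and 215 in the AT7519 libraries (log2 change -1.59, SE 0.31, adjusted p = 0.00310) and SNORA26 had 60.5 and 82.1 in the combination libraries, against 194 and 175 in the AT7519 libraries (log2 change -1.37, SE 0.25, adjusted p = 0.00224). SNORD56, which lies within NOP56, had 17.4 and 27.4 normalised counts with the combination and 1 read in each AT7519 library, so no fold is given.

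The genes that fell most had few exons. Exons are counted here as blocks merged over all annotated transcripts of a gene, so the number depends on the isoforms annotated. Coding genes that fell by at least 1 on the log2 scale had a median of 4 exons and a median span of 12.6 kb, and 44.6% had up to 3 exons. All coding members had a median of 11 exons and 33.3 kb, and 9.31% had up to 3. The share that fell was 23.4% of 308 genes of 1 exon, 25.2% of 921 with 2 to 3, 23.4% of 3002 with 4 to 7, 17.3% of 4648 with 8 to 15 and 11.1% of 4324 with 16 or more. The share that rose ran the other way and was 2.60% in the first class and 9.99% in the last. Their median levels differed too, being 433 normalised counts in the first class and 2872 in the last, and the part of level was not tested.

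**Figure D4:**
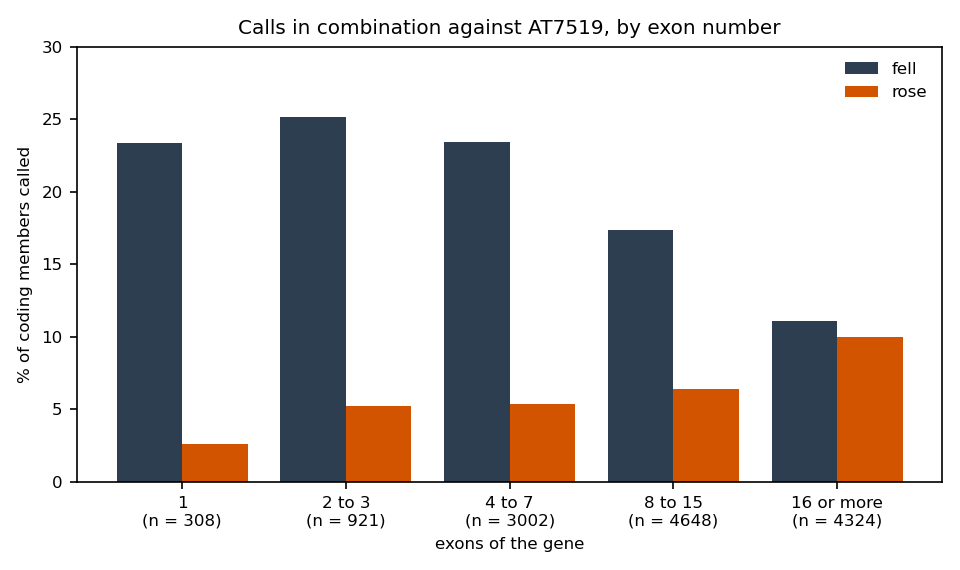
Share of coding members (per cent) that fell (dark) or rose (orange) in the combination against AT7519, by number of exons (blocks merged over all annotated transcripts). The share that fell was 23.4% for single-exon genes and 11.1% for genes of 16 or more exons, and the share that rose was 2.60% and 9.99%.

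Without AT7519 OSMI-2 changed fewer genes past the threshold. Of the same 19143 genes 588 (3.07%) were called in OSMI-2 against control, 124 higher (0.648%) and 464 lower (2.42%). This pair shares no library with the combination and AT7519. The count was 2 without control replicate 2, 15 without OSMI-2 replicate 2, 117 when OSMI-2 replicate 1 was left out and 296 when control replicate 1 was. Of the 124 that rose, 83 also rose on adding OSMI-2 to AT7519, and of the 464 that fell 401 also fell. The 484 genes called the same way made up 82.3% of the calls without AT7519 and 12.8% of those with it. ADRA2A, an adrenergic receptor gene, was called in opposite directions. It had 379 and 354 in the combination libraries, against 547 and 524 in the AT7519 libraries (log2 change -0.55, SE 0.15, adjusted p = 0.0196), and 1071 and 1132 with OSMI-2 alone, against 572 and 721 in control (log2 change 0.78, SE 0.15, adjusted p = 0.0168). Its fall was lost without AT7519 replicate 1 or combination replicate 2 (up to 0.102), and its rise on leaving out any OSMI-2 or control library (up to 0.204). Genes that fell with AT7519 present had a median log2 change of -0.45 there and -0.21 without it, and those that rose had 0.65 and 0.26. Across genes, which do not count as independent replicates, both changes correlated with Pearson r = 0.355 and Spearman rho = 0.457, given as a description.

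The difference between both changes was called for 202 genes (1.06%), 12 positive (0.0627%) and 190 negative (0.993%). Of the 190, 178 fell with AT7519 present, and 175 of them were not called without it. Their median log2 change was -0.94 with AT7519 and -0.04 without, and 26.9% of the 186 coding genes had up to 3 exons. These included IER5, MIR25, CYR61, CITED2, BTG2, PLK2, PPM1D and MCL1. On the positive side stood PPP1R10, which encodes the nuclear PP1 subunit PNUTS, with 1950.0 and 2467 in the combination libraries, against 794 and 981 in the AT7519 libraries and 11608 and 11938 in control (log2 interaction 1.29, SE 0.17, adjusted p = 0.00783). SMAD6, an inhibitor of BMP signalling, had 216 and 221 in the combination libraries, against 88.8 and 131 in the AT7519 libraries (log2 interaction 1.41, SE 0.30, adjusted p = 0.0362). The interactions of PPP1R10 and SMAD6 did not pass on leaving out any OSMI-2 or control library (adjusted p up to 0.0709 and 0.218), nor that of SMAD6 without AT7519 replicate 1 or combination replicate 2. The count of 202 rested on all the libraries: it was 4 when the first OSMI-2 or the first control library was left out, 7 on leaving out the second OSMI-2 library and 2 on leaving out the second control library. It was 72 without AT7519 replicate 1, 55 without combination replicate 2, 493 without AT7519 replicate 2 and 424 without combination replicate 1. EFNA5, the gene of an ephrin ligand, named after its values were seen, was called in all 8 of these fits. It had 3997 and 4111 in the combination libraries, against 8834 and 8760.1 in the AT7519 libraries, and 8495 and 9603 with OSMI-2 alone, against 8558 and 9852 in control (log2 interaction -1.09, SE 0.13, adjusted p = 0.00524).

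**Figure D5:**
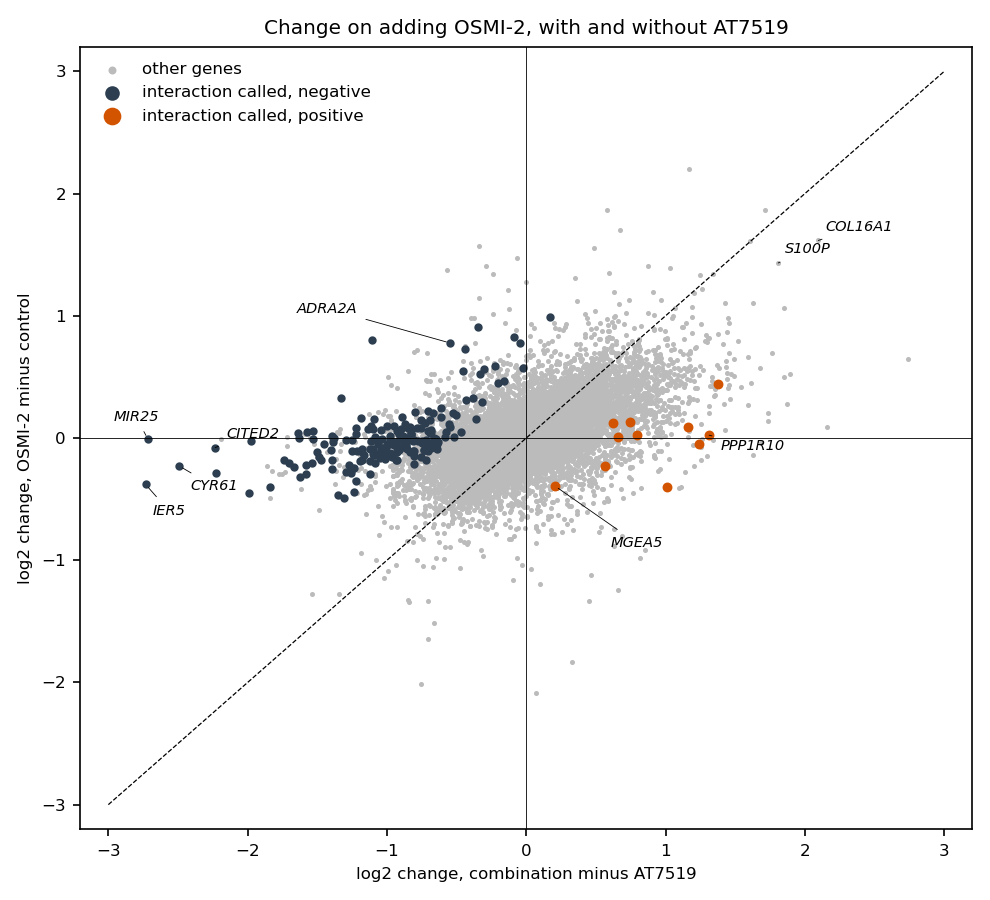
Log2 change of each gene in the combination against AT7519 (horizontal) and in OSMI-2 against control (vertical) for the 15070 genes averaging 50 or more normalised counts in those 4 libraries; 1 lies outside the axes. Dark points are the 190 called negative interactions, orange points 11 of the 12 positive ones, and the dashed line marks equal changes; most dark points lie near 0 on the vertical axis, and ADRA2A lies left of 0 on the horizontal axis and above 0 on the vertical one.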

How the data were processed

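Strand-specific libraries of LNCaP cells were sequenced, per the labels' protocols. The authors deposited one table of signal values, read counts per gene divided by 1 size factor per library; STAR, HTSeq, DESeq2, hg19 and GRCh37 are named in the submitters' processing notes. Annotation, counting settings and tool versions: not given in the sources used here. Dividing each column by its smallest step gave whole reads for 100% of values (tolerance 0.01). Lines without a gene name (28) were dropped. The 2 libraries of each group differed by more than counting error, so none repeats another.

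limma 3.58.1 under R 4.3.3, with its variance trend, modelled log2(value + 1) of the 19143 genes in all 8 libraries, with 4 group means (4 residual and 10.1 prior degrees of freedom). Contrasts were the combination against AT7519, OSMI-2 against control, and their difference, called the interaction. The p-values are two-sided and Benjamini-Hochberg adjusted over all 19143 genes, with calls below 0.05. "Rose" and "fell" refer to called genes. Folds are 2 to the power of the fitted change, which understates low genes. The functions were tested on simulated data. Alternatives were edgeR 4.0.16 and DESeq2 1.42.0 on the recovered reads, 5 other scales, other pseudocounts and filters, no variance trend, the 4 libraries alone, a replicate block and leaving out each library.

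Named genes were the 12 largest called rises and falls averaging 50 or more, with a proper symbol and groups that do not overlap, up to 3 called members in each direction of each list, the 6 largest interactions in each direction, and a set fixed by name (MGEA5, OGT, HEXIM1, CDK9, CCND1, MCL1, MYC, CDKN1A and KLK3). Some genes outside the rule are given as list members, host genes or overlaps, and some within it are left out, both after their values were seen. A few genes are not reported here, although list counts include them. The genes and lists were chosen with earlier results of these data known. Gene types, exons and overlaps came from GENCODE 29 by symbol (33909 direct matches, 1313 by older symbols, 20515 unmatched), and overlaps on the other strand matter if counting ignored strand. Of members, 10889 matched a RefSeq promoter.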

Additional observations from a re-analysis of the deposited data

Results flagged for a closer look

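The change on adding OSMI-2 differed with and without AT7519, by a test of that difference, for 202 genes. The values below are fitted log2 interactions, the change with AT7519 minus the change without it, for genes named in the text or by the rule for named genes.

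Among immediate early genes, signalling genes and microRNA loci, the interactions were negative for IER5 (-2.35), CYR61 (-2.27), DUSP2 (-1.44), LIF (-1.63), MIR25 (-2.71) and MIR17HG (-1.94). For genes of the cell cycle, p53 and apoptosis they were negative for PLK2 (-1.54), BTG2 (-1.95), PPM1D (-1.34), CDKN1B (-1.01), CCNG2 (-0.842) and MCL1 (-0.597). For transcription and chromatin genes they were negative for CITED2 (-2.16), CCNT1 (-0.797), BRD2 (-0.731), GATA2 (-0.73), NFE2L2 (-0.746), MXD1 (-1.04), MYC (-0.553) and ZNF281 (-1.63). For transport and protein-folding genes they were negative for SLC30A1 (-1.28), SLC38A2 (-0.516) and DNAJC3 (-0.609). MIR593 had -3.68, but both control libraries held 0 reads and the OSMI-2 libraries 7 and 19, so this value depends on the pseudocount; it was called in none of the 8 fits that left out 1 library.

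Positive interactions were those of SMAD6 (1.41), PPP1R10 (1.29), ZNF382 (1.08), XRCC2 (0.794), ERVK13-1 (0.769), ZNF75A (0.651) and MGEA5 (0.597). Of these 31 genes, none was called in all 8 limma fits that left out 1 library, and 6 were called in at least 4 of them. edgeR called 29 of the 31 and DESeq2 29.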

How the results depend on the processing

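For the combination against AT7519 (3790 genes called, 1388 higher and 2402 lower), fits without the variance trend called 863 (360 higher, 503 lower; limma, 5481 at an unadjusted p below 0.05), and those on the 4 libraries alone 2397 (767 higher). Equal upper quartiles gave 2143 higher and 1438 lower, equal totals 1520 lower and quantile normalisation 1464 lower. Leaving out 1 library gave 1674 to 3813 genes, with 523 to 1576 higher and 1151 to 2237 lower, the fewest without combination replicate 2. edgeR called 3466 and DESeq2 4232.

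For the interaction (202) the count was 33 without the filter, 0 without the trend (limma; 1761 unadjusted, edgeR 182), 121 with equal upper quartiles, 96 with quantile normalisation and 558 with DESeq2. Leaving out 1 library gave 2 to 493. For OSMI-2 against control (588) it was 101 without the filter, 0 without the trend (limma; 2812 unadjusted, edgeR 658), 262 with equal totals, 1286 with equal mitochondrial mRNAs, 299 with equal upper quartiles and 1505 with DESeq2. Leaving out 1 library gave 2 to 914, the fewest without control replicate 2. The causes were not tested.

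No called gene named here turned its direction under these alternatives, while the list medians near 0 given in the text did. Of 145 named genes called in the main comparison, 130 to 140 kept the call on the 5 other scales, 143 with edgeR, 144 with DESeq2, 118 without the filter, 62 without the trend and 103 to 140 without 1 library. Over all members, deviations of same-numbered libraries correlated by 0.00899 to 0.114, and no pairing of the numbers was assumed. Among genes that fell, replicate 2 read lower than replicate 1 in 70.0% for the combination and 68.2% for AT7519. An effect shared by same-numbered libraries in those genes alone was not tested. With a replicate block 4260, 405 and 868 genes were called in the 3 comparisons. Depth limits low genes: 5.13% of genes with a mean of 10 to 50 were called, against 28.3% of those above 10000.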

Other observations

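The calls on adding OSMI-2 to AT7519 were also counted by annotated gene class, with no test between classes. Of 345 antisense RNA genes above the minimum 13.9% rose and 2.90% fell, and of 245 lincRNA genes 7.76% rose and 2.04% fell. Of 13203 protein-coding genes 7.17% rose and 17.4% fell. Of 875 processed pseudogenes 1.60% rose and 1.37% fell, and such copies can share reads with their parent genes. Whether counting used strand is not stated, so reads of an antisense gene and its partner cannot be told apart, and the part of level in these shares was not tested.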
